A study of Mus musculus with 34 samples.

Results

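The proteasome is the protease that degrades most ubiquitin-tagged proteins, and its genes were followed here in hearts of mice that had carbon black placed into the airways. The genes were chosen by name: all symbols that begin with Psma, Psmb, Psmc, Psmd, Psme, Psmf or Psmg, read through the RefSeq accession of each probe, without the immunoproteasome genes Psmb8, Psmb9 and Psmb10. This gave 45 genes of the 33269 genes and transcripts on the array, and 44 of them were among the 19798 that were bright enough to test. The exception was Psmb11, the beta subunit of the thymus proteasome, which was well above background on at most 9 of 34 arrays. Psmc3ip, a recombination factor, and Psme3ip1, a protein that binds the activator subunit PSME3, meet the naming rule but are not proteasome subunits. Psma8, Psmg4 and Psme2b were not analysed here.

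All mice were female C57BL/6 animals acquired at 5 to 6 weeks of age. Carbon black groups were dosed through the trachea with 40 µl of a suspension that held 162 µg of the carbon black Printex 90, and control groups with the vehicle alone, saline that contained cell-free lavage fluid of C57BL/6 mice. Hearts were taken after 1 day (6 carbon black arrays, 6 control arrays), 3 days (5 and 6) or 28 days (5 and 6), with 1 animal per array. A random section that held both ventricles was used, and its RNA (Cy5) was hybridised with a pooled mouse reference RNA (Cy3). Values below are log2 ratios of heart over reference, so 0 means equal signal in both. They compare a gene between hearts, and do not rank the abundance of different genes.

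The core particle, called 20S, is a barrel of alpha and beta rings, with the proteolytic sites on the beta subunits encoded by Psmb5, Psmb6 and Psmb7. The regulatory particle, 19S, binds ubiquitin chains, removes them and threads the substrate into the barrel with a ring of ATPases, and 20S and 19S together form the 26S proteasome. Alternative activators, an inhibitor and dedicated assembly chaperones complete the set. In heart muscle the system turns over sarcomere proteins and damaged proteins, and the transcription factor NRF1 (Nfe2l1) raises proteasome genes together when degradation is blocked.

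Promoter windows were searched because several members moved together between arrays. RefSeq windows of GRCm38.p6, which run over 250 bases before and 50 bases after a start, were matched for 38 of the 45 genes; Psmb1, Psmb2, Psmb7, Psmc3, Psmd3, Psmd7 and Psmg2 were not matched. The windows were searched on both strands for CCGGAAG, a core bound by ETS factors, for TGACNNNGC, the core of the antioxidant response element bound by NRF1 and NRF2, and for CCAAT, and a gene counted once however many of its windows held a match. CCGGAAG was found in 16 of 38 proteasome genes (42.1%), and in 9.93% of all 27025 genes with a window. TGACNNNGC was found in 6 of 38 (15.8%), among them the catalytic subunit genes Psmb5 and Psmb6, and in 14% of all genes. CCAAT was found in 15 of 38 (39.5%) and in 41.1% of all genes. The 27025 genes were not matched to the members for base composition or brightness. A match is a description of the sequence and was not tied to the expression values. Within groups, the ratios of Psmd6 and Psmb6 correlated with that of Psmg1 at 0.82 and 0.56. Those of Psmd14, Psma2 and Psma1 did so at 0.80, 0.72 and 0.62, but their windows held neither CCGGAAG nor TGACNNNGC. For the remaining genes with CCGGAAG, the correlation with Psmg1 ran from -0.56 for Psme3ip1 to 0.66 for Psmd13. Between them lay -0.28 for Psmc3ip, -0.14 for Psmc1, 0.08 for Psmc2 and 0.55 for Psmd12. The windows below each hold a match. They belong to Psmg1 and Psme3ip1, which passed the test of exposure over all days, and to Psmd6 and Psmb6. They read 5′ to 3′ on the strand of the gene, with the match in capitals: CCGGAAG in Psmg1 (chr16:95990911-95991210, minus strand), Psmd6 (chr14:14120896-14121195, minus strand) and Psme3ip1 (chr8:94601677-94601976, minus strand), and TGACNNNGC in Psmb6 (chr11:70525107-70525406, plus strand).
Psmg1: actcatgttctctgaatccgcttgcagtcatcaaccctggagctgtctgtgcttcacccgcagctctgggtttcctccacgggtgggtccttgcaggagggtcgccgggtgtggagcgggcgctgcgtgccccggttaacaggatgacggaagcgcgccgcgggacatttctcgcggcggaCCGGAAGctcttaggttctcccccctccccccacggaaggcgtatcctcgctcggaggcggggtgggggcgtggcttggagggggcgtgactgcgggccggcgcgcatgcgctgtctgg
Psmd6: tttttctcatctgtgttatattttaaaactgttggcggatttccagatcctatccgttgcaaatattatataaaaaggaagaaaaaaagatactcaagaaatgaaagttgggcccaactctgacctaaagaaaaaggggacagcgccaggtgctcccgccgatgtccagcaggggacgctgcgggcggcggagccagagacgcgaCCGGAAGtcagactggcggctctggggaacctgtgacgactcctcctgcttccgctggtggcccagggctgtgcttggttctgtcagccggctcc
Psme3ip1: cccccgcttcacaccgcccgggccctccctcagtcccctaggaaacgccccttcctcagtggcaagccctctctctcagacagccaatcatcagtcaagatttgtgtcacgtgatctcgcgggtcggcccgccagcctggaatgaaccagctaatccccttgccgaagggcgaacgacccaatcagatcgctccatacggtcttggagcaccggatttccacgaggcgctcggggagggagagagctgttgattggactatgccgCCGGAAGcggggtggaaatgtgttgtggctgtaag
Psmb6: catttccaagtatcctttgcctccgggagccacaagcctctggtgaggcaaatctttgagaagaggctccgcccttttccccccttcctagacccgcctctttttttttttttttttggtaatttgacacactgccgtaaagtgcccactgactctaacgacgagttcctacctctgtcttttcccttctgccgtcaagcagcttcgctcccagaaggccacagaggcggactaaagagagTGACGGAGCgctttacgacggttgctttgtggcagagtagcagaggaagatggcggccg
The capitals begin at base 182 of the Psmg1 window, base 206 of the Psmd6 window, base 266 of the Psme3ip1 window and base 242 of the Psmb6 window, so that the match lies past the start in Psme3ip1 and before it in the other 3.

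The heart channel was well above background at 42.8% to 66.6% of the spots of an array and saturated at none. The 8 cardiomyocyte markers were above the reference on all arrays, from 0.23 for Ryr2 at its lowest to 8.07 for Pln at its highest. Sections differed in what else they held: 5 arrays were low in atrial transcripts. Control day 3 replicates 4, 5 and 6 were the highest of their group in liver transcripts. Other groups also held arrays high in liver transcripts, such as carbon black day 3 replicates 1 and 3 and control day 1 replicates 1 and 3. The arrays lay on 14 slides of 4 positions, and treatment was uneven over the positions: position 4 held 10 of 16 carbon black arrays and 0 of 18 controls, and position 1 held 2 carbon black arrays and 12 controls.

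Across the 34 arrays most proteasome genes gave somewhat less signal in heart than in the reference. The median of their mean log2 ratios was -0.19, and 14 of 44 were above 0, against a median of 0.06 over all genes tested. Their spots were bright, with a median log2 signal of 11.74 against 8.21 over all genes tested, which is a property of the spots and not a transcript level. Psmb2 and Psmg1, with 1 probe each, were among the dimmer members at 8.73 and 8.93, and Psme3ip1 was at 9.71. All 44 were well above background on every array. The plot of heart-over-reference ratios shows the genes by role.

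**Figure D1:**
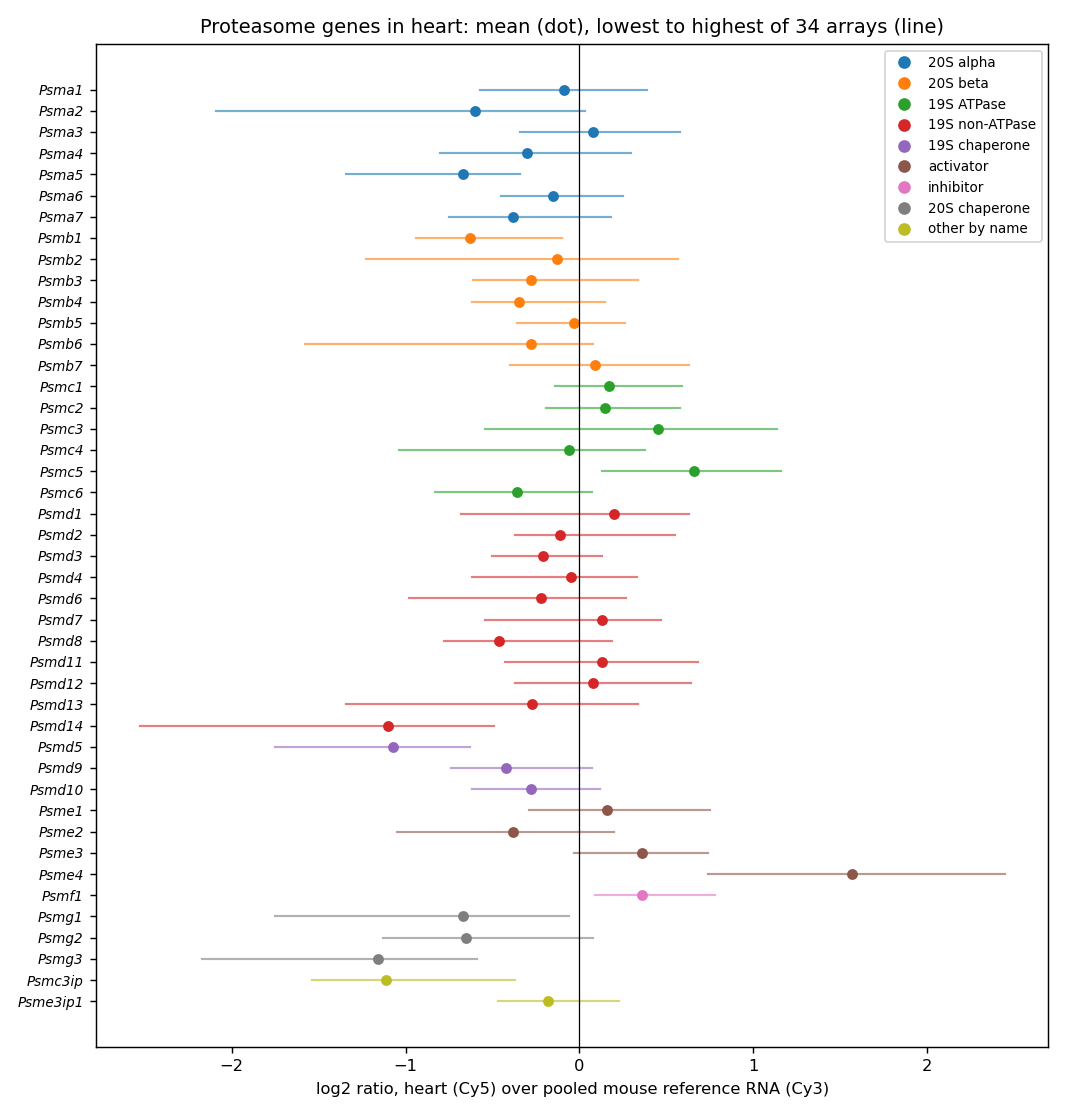
Mean log2 ratio of heart over reference RNA for each of 44 proteasome genes (dots), with the lowest and highest of 34 arrays (lines), coloured by role. Most dots lie between -0.7 and 0.7, with Psme4 alone above 1 and Psmg3, Psmc3ip, Psmd14 and Psmd5 below -1.

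In the alpha ring, which gates the barrel, the mean log2 ratio ran between -0.67 for Psma5 and 0.08 for Psma3. Psma5 was also below 0 on every array, from -1.34 to -0.34. In the beta ring, which holds the proteolytic sites, the range was -0.63 for the structural subunit gene Psmb1 to 0.09 for Psmb7, the subunit with trypsin-like activity. No gene of either 20S ring had a mean ratio above that of Psmb7.

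The ATPases of the regulatory particle were higher against the reference. Psmc5 had the highest mean, 0.66, and was above 0 on all arrays (0.13 to 1.16), and Psmc3 averaged 0.45 with arrays between -0.54 and 1.14. The lowest ATPase gene was Psmc6 at -0.36. Among the non-ATPase subunits Psmd1, a scaffold of the base, was highest at 0.20 and Psmd14, the deubiquitinase of the lid, lowest at -1.10. Psmd14 was below 0 on every array, between -2.53 and -0.49. A second Psmd14 probe gave a mean of -0.83.

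Chaperones of assembly were low. The 19S chaperones ran from -1.07 for Psmd5 to -0.28 for Psmd10, which encodes gankyrin, and the 20S chaperones from -1.16 for Psmg3 to -0.65 for Psmg2. The activators differed most among themselves. Psme4, whose product PA200 caps the barrel in the nucleus, had the highest ratio of all members at 1.57 with arrays between 0.74 and 2.45, while Psme2, which forms the interferon-inducible PA28 ring with Psme1, was at -0.38. The other 2 probes of Psme4 averaged 1.45 and 0.60. The inhibitor gene Psmf1 was at 0.36, but its other probes gave 0.19 and -0.68, so the side of the reference on which Psmf1 lay differed between probes. Of the 2 genes that belong only by name, Psmc3ip averaged -1.11 and Psme3ip1 -0.18.

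The first question of the design is which genes differ between exposed and control hearts when the 3 days are averaged. In limma with Benjamini-Hochberg adjustment over all genes tested, 2 proteasome genes rose and 1 fell. Psmb2, a structural subunit of the beta ring, rose by a log2 fold change of 0.47 ± 0.12 (SE), a fold of 1.38 (adjusted p = 0.0472), and Psmg1, the chaperone that with Psmg2 seeds the alpha ring, rose by 0.47 ± 0.12, also a fold of 1.38 (adjusted p = 0.0433). Psme3ip1 fell by 0.19 ± 0.05 (adjusted p = 0.0499), and its log2 fold change was 0.14 when arrays were centred on their median in place of loess, which moved the median of all genes to 0.19, so that Psme3ip1 was above 0 but below genes as a whole. These 3 of 44 stand beside 1.94% of all genes past the threshold, 1.32% of all genes that rose and 0.626% that fell. All 3 adjusted p lie just under 0.05, and none of the 3 genes passed with slide, scan day or array position as a fixed block. Position was uneven between the arms, and with it as a block the adjusted p were 0.67 for Psmb2, 0.688 for Psmg1 and 0.81 for Psme3ip1.

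**Figure D2:**
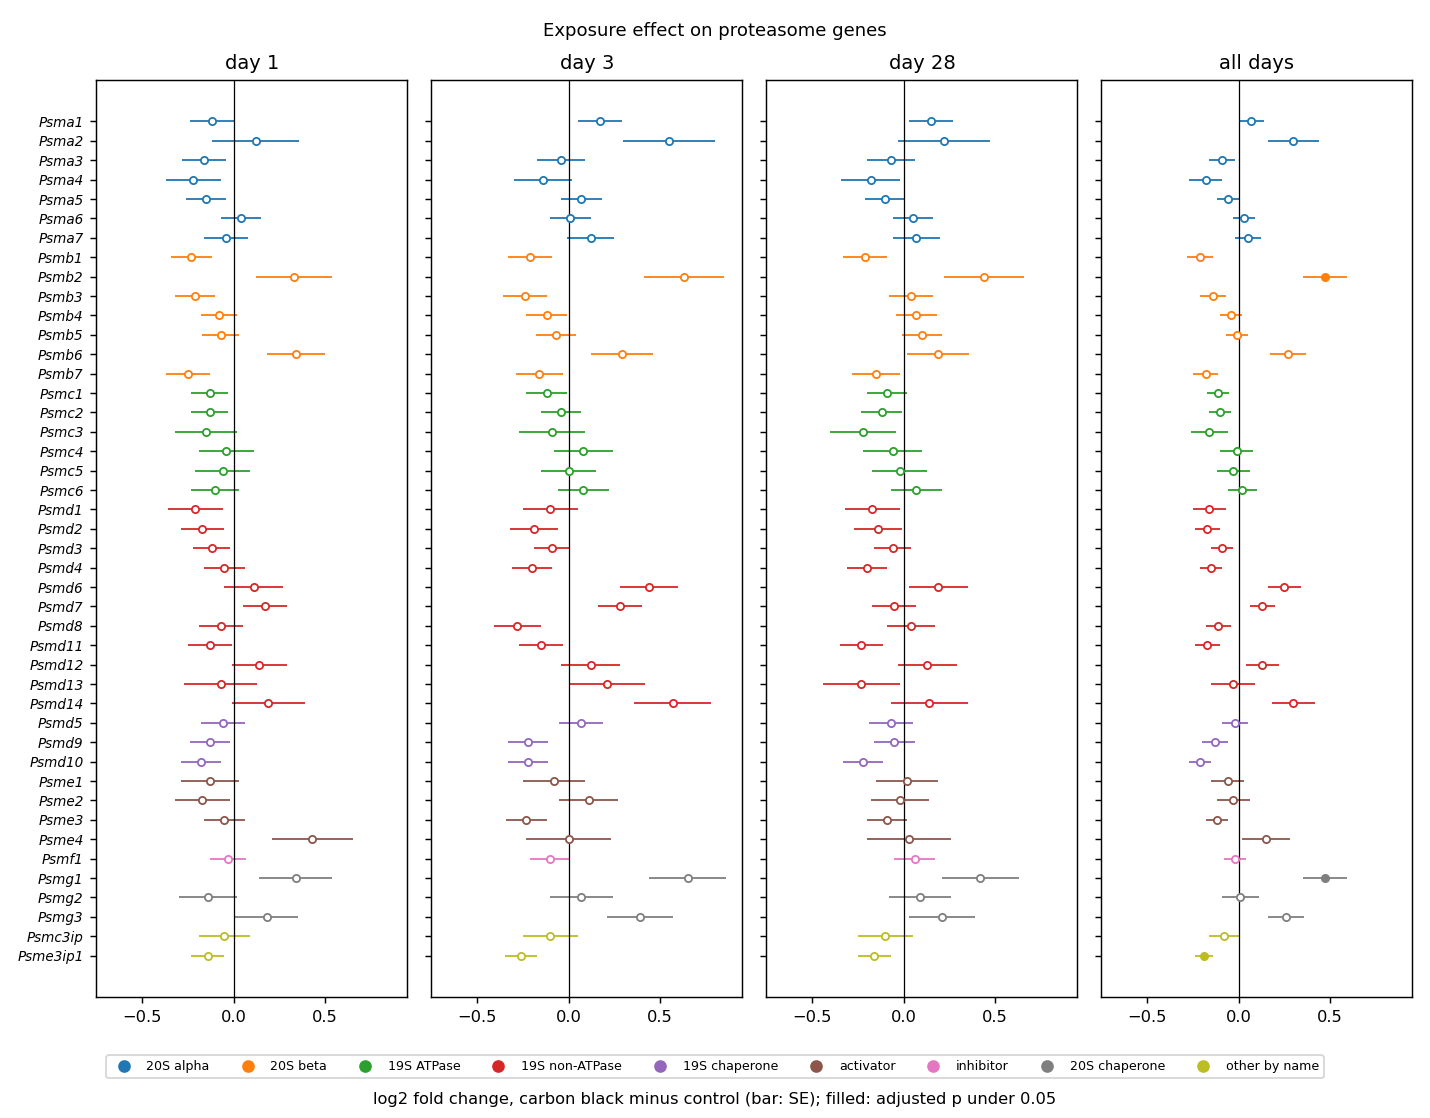
Log2 fold change of each of 44 proteasome genes, carbon black minus control, at day 1, day 3, day 28 and over all days, with the standard error as a bar and colours by role. Filled points passed an adjusted p of 0.05, which happened over all days for Psmb2, Psmg1 and Psme3ip1.

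The array values show how these differences arise. Psmb2 on carbon black arrays at day 1 had a lowest, median and highest log2 ratio of -0.29, -0.05 and 0.43, against -1.06, -0.42 and 0.34 on day 1 control arrays. At day 3 the carbon black arrays had 0.14, 0.34, 0.08, 0.14 and 0.08, against a lowest, median and highest of -1.23, -0.28 and -0.08 on control arrays. At day 28 the carbon black arrays had -0.13, 0.08, 0.28, 0.22 and 0.57, against -0.77, -0.24 and 0.35 on control arrays. Control arrays were the more spread at each day, and the groups overlapped at day 1 and day 28. All 16 carbon black arrays lay above the mean of the controls of their day.

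Psmg1 followed the same order. Its carbon black arrays had a lowest, median and highest of -0.89, -0.56 and -0.11 at day 1, against -1.55, -0.88 and -0.37 on control arrays. At day 3 the carbon black arrays had -0.38, -0.31, -0.49, -0.25 and -0.45, and the control arrays -1.75, -0.86 and -0.57 as lowest, median and highest. At day 28 they had -0.47, -0.43, -0.23, -0.37 and -0.32, against -1.49, -0.77 and -0.06 on control arrays. The groups did not overlap at day 3, and overlapped at day 1 and day 28. Of 16 carbon black arrays, 15 lay above the mean of their day's controls.

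Psme3ip1 moved little. Its carbon black arrays had a lowest, median and highest of -0.45, -0.22 and -0.13 at day 1, against -0.21, -0.14 and 0.09 on control arrays. At day 3 the carbon black arrays had -0.29, -0.25, -0.45, -0.23 and -0.38, against -0.30, -0.10 and 0.23 as lowest, median and highest on control arrays. At day 28 they had -0.15, -0.21, -0.47, -0.19 and -0.22, against -0.28, -0.06 and 0.04 on control arrays. All 16 carbon black arrays lay below the mean of their day's controls, and the groups overlapped at every day. A second, dimmer probe of Psme3ip1 gave 0.05 ± 0.07 (SE) over all days and did not follow the first within groups (r = 0.00 over 34 arrays).

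**Figure D3:**
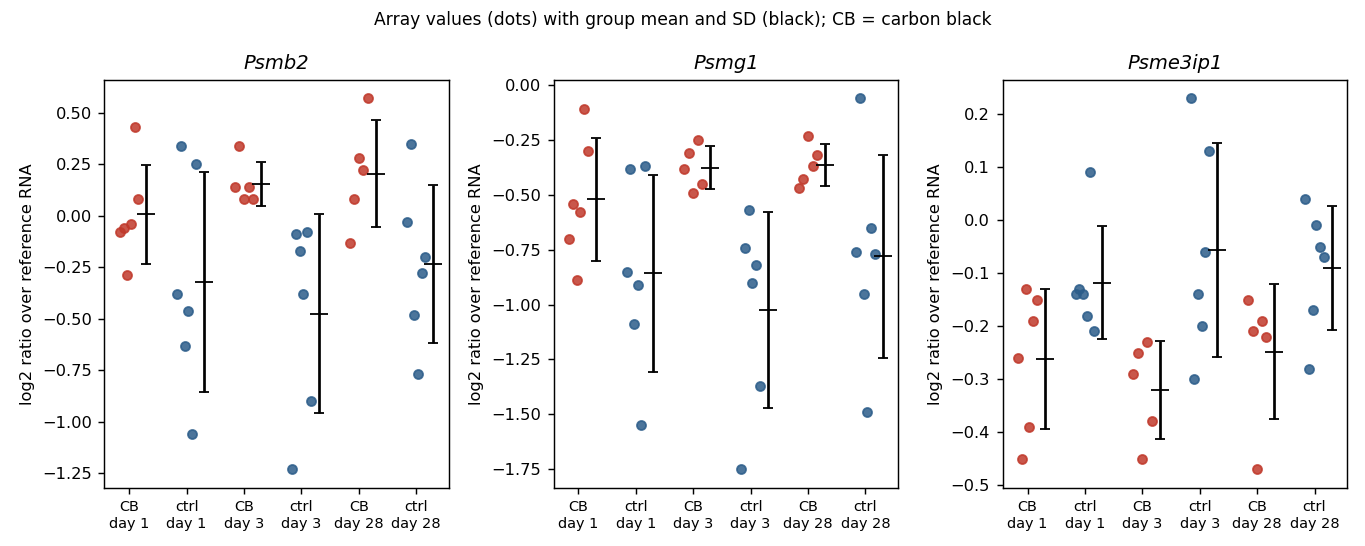
Log2 ratio of Psmb2, Psmg1 and Psme3ip1 on each array (dots; carbon black, CB, in red and left of its control, ctrl, in blue), with the group mean and SD in black. At day 3 all carbon black arrays of Psmb2 (0.08 to 0.34) and Psmg1 (-0.49 to -0.25) lie above all control arrays.

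The remaining 41 genes did not pass over all days, and 16 of all 44 (36.4%) had an unadjusted p under 0.05, beside 18.3% of all genes. By role, this held for 5 of 7 beta ring genes, 5 of 11 non-ATPase subunits, 2 of 3 chaperones of each particle, 1 of 7 alpha ring genes and none of the 6 ATPases or 4 activators. With array position as a fixed block, 3 of 44 members had such a p in limma, beside 1503 of the 19798 genes tested. With Agilent processed signals it was 2, beside 2161. The other alternatives gave 10 without the 3 control day 3 arrays highest in liver transcripts (2874 of all genes) to 22 under median centring (6207). Psmd10 was next by unadjusted p, with -0.38 ± 0.16 on carbon black arrays (SD, n = 16) and -0.18 ± 0.18 on control arrays (SD, n = 18), a log2 fold change of -0.21 ± 0.06 (SE; limma, adjusted p = 0.066), and 0.09 under median centring, where all genes had a median of 0.19. Over the members the median log2 fold change was -0.04, against 0.00 over all genes, with 15 of 44 above 0, and under median centring it was 0.34. In the 31 subunits of the 26S particle the median was also -0.04, and in the 3 chaperones of 20S assembly it was 0.26.

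Markers of some cell types also differed between the arms. The cardiomyocyte score, the mean over 8 of 8 markers of each marker's log2 ratio minus its median over arrays, was 0.07 ± 0.40 on carbon black arrays (SD, n = 16) and -0.29 ± 0.41 on control arrays (SD, n = 18), and the summed log2 ratio of the list ran from 30.96 to 46.18 on carbon black arrays and from 30.66 to 41.67 on control arrays, with all 8 markers well above background on all arrays. The liver score was 0.24 ± 0.91 on carbon black arrays and 0.75 ± 1.27 on control arrays (6 of 8 markers measured, 2 of them well above background on all arrays), with summed log2 ratios of 0.71 to 23.09 on carbon black arrays and of 3.28 to 29.79 on control arrays. Over all days the median log2 fold changes of the other marker lists ran from -0.44 for 3 airway and alveolar markers, none of them well above background on all arrays, to 0.43 for adipocyte markers, with 0.41 for atrial and -0.35 for fibroblast markers. At single days they reached -0.94 for fibroblast and -0.62 for macrophage markers at day 1, and -1.51 for airway and 1.04 for adipocyte markers at day 3. Single arrays were spread widely. On carbon black day 1 arrays the fibroblast score ran from -2.08 to -0.05 and the macrophage score from -1.80 to 0.27. On control day 3 arrays the airway score ran from -0.18 to 3.92. All 8 cardiomyocyte markers had a log2 fold change above 0 over all days, and 1 passed (limma, adjusted p = 0.0462), beside 1.94% of all genes. Mean scores on carbon black and control arrays lay closer for endothelial (-0.09 and -0.02), smooth muscle and pericyte (-0.24 and -0.20) and erythroid markers (-0.06 and -0.10). Fewer cells of a type and less RNA per cell cannot be told apart in these sections, and the part of the marker lists in the results was not tested.

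With array position as a block, the log2 fold change over all days was 0.32 ± 0.16 (SE) for Psmb2, 0.30 ± 0.16 for Psmg1 and -0.09 ± 0.07 for Psme3ip1. With slide as a fixed block they were 0.53 ± 0.17, 0.55 ± 0.15 and -0.22 ± 0.06, with adjusted p of 0.165, 0.13 and 0.125. On the 10 slides that held both arms at one day, carbon black minus control was above 0 in 8 pairs for Psmb2 (-0.40 to 1.37, median 0.56) and in 9 for Psmg1 (-0.16 to 1.37, median 0.58), and below 0 in all 10 for Psme3ip1 (-0.52 to -0.01, median -0.22).

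The calls depended on single arrays. Leaving out 1 array at a time, 22 of the 34 arrays left no proteasome gene past the threshold, and all genes past it then numbered 0 to 293. At day 28, omission of replicate 4 of carbon black or replicate 6 of control left a count of 1, beside 267 to 334 of all genes. Omission of replicate 6 of carbon black at day 1, or of replicate 2 of control at day 3, gave 5, beside 728 to 817 genes. The count was 2 to 4 when the array omitted was replicate 3 of carbon black at day 1, replicate 1 of carbon black at day 28, replicate 1, 2 or 6 of control at day 1, replicate 3 or 5 of control at day 3, or replicate 2 of control at day 28, and it was 0 when any other array was omitted. Where the count was 2 to 4, all genes past the threshold numbered 302 to 945. The log2 fold change itself moved between 0.42 and 0.51 for Psmb2, 0.42 and 0.52 for Psmg1, and -0.20 and -0.17 for Psme3ip1. Control day 3 replicate 1 and control day 1 replicate 5 had the lowest Psmb2 and Psmg1 (-1.23 and -1.75, and -1.06 and -1.55), and leaving both out gave 0.37 for both genes and no member past the threshold.

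At single days no proteasome gene passed the adjusted threshold, and neither did any other gene. At day 1 the adjusted share of all genes was 0%, 3 of 44 members had an unadjusted p under 0.05, beside 7.22% of all genes, and no member had groups that did not overlap, beside 0.359%. The smallest unadjusted p belonged to Psmb6, the subunit with caspase-like activity, at -0.14 ± 0.16 on carbon black arrays and -0.48 ± 0.55 on control arrays (SD, n = 6 each). The lowest, median and highest were -0.35, -0.10 and 0.02 on carbon black arrays and -1.58, -0.31 and -0.05 on control arrays, so that the groups overlapped. The log2 fold change of 0.34 ± 0.16 (SE; limma, adjusted p = 0.679) was 0.12 without control day 1 replicate 5, the array that set the control spread. Next were Psmb7 with -0.25 ± 0.12 and Psmb1 with -0.23 ± 0.11 (adjusted p = 0.69 each), and they were 0.19 and 0.27 under median centring, where all genes had a median of 0.21. Psme4 was at 2.05 ± 0.29 on carbon black arrays and 1.62 ± 0.41 on control arrays (SD, n = 6 each), a log2 fold change of 0.43 ± 0.22 (SE; adjusted p = 0.692), whereas at day 3 and day 28 it was 0.00 ± 0.23 and 0.03 ± 0.23. The difference of the exposure effect between days for Psme4 had an unadjusted p of 0.316 in the limma F-test.

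At day 3, 9 of 44 members had an unadjusted p under 0.05, beside 11.1% of all genes, and none passed after adjustment (0% of all genes). The carbon black and control arrays did not overlap for Psmb2 and Psmg1, 2 of 44 genes, beside 0.899% of all genes. The log2 fold changes were 0.63 ± 0.22 (SE) for Psmb2 and 0.65 ± 0.21 for Psmg1, with adjusted p of 0.348 for both (limma). Psmd14 had -0.79 ± 0.20 on carbon black arrays (SD, n = 5) and -1.36 ± 0.36 on control arrays (SD, n = 6), a log2 fold change of 0.57 ± 0.21 (SE), but the second probe of Psmd14 gave 0.27 at this day and 0.00 over all days. Psme3ip1 had -0.26 ± 0.09 at this day, and 0.18 under median centring, where all genes had a median of 0.29.

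At day 28 no member reached an unadjusted p under 0.05, beside 2.98% of all genes, and 0% of all genes passed after adjustment; no member had groups that did not overlap, beside 0.379% of all genes. Psmb2 had a log2 fold change of 0.44 ± 0.22 (SE), Psmg1 of 0.42 ± 0.21, Psmd10 of -0.22 ± 0.11 and Psmd11, a lid subunit, of -0.23 ± 0.12 (limma, adjusted p = 1 each), with 0.01 for Psmd11 under median centring, where all genes had a median of 0.08. For Psmb2 and Psmg1 the exposure effect did not differ past the threshold between the days (limma F-test, unadjusted p = 0.606 and 0.547), and 0 of 44 members and 0% of all genes passed that test. The smallest unadjusted p of a member was 0.161, for Psmd7. Over all days no member or other gene had arms that did not overlap, that is 0% of all genes.

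In controls alone, the comparison of days asks whether proteasome genes moved with time after the instillation of vehicle. No member passed in any of the 3 comparisons, and no gene did (0% each). At an unadjusted p under 0.05 there was 1 member of 44 for day 3 minus day 1 (2.04% of all genes), 2 for day 28 minus day 1 (1.18%) and 2 for day 28 minus day 3 (4.45%), and no member had groups that did not overlap, beside 0.0354%, 0.116% and 0.0556% of all genes. Psmd7, the partner of Psmd14 in the lid, had -0.12 ± 0.26 at day 3 and 0.14 ± 0.21 at day 1 (SD, n = 6 each), and 0.17 ± 0.23 at day 28. Its log2 fold change was -0.26 ± 0.12 (SE) for day 3 minus day 1 and 0.29 ± 0.12 for day 28 minus day 3, which share the day 3 controls. The next members for day 3 minus day 1 were Psme3 (0.13), Psma5 (-0.12) and Psme4 (-0.22). For day 28 minus day 1 they were Psmc1 (-0.24), Psmb7 (-0.26), Psmd9 (-0.20) and Psmd8 (-0.17), and for day 28 minus day 3 after Psmd7 they were Psmd8 (-0.28), Psmd4 (-0.19) and Psmd9 (-0.19).

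Proteasome genes varied together within groups more than pairs of genes did on the whole. After the mean of each group had been subtracted, the median correlation between pairs of members over 34 arrays was 0.16, against 0.00 over pairs of all genes. The members had brighter spots than all genes (median log2 signal 11.74 against 8.21), and the pairs were not matched for brightness. The correlations are descriptions, and the arrays share slides and reference RNA. By role, the median was 0.48 among the 3 chaperones of 20S assembly and 0.43 among the ATPases. It was 0.34 in the beta ring, 0.28 among the non-ATPase subunits and 0.24 in the alpha ring. The activators had 0.08. The highest value of all pairs was 0.93, for Psmg1 and Psmb2, and the lowest -0.75, for Psme4 and Psme2. Psmg1 also followed Psmd6 (0.82), Psmd14 (0.80), Psma2 (0.72) and Psmd13 (0.66), and ran against Psmd10 (-0.64) and Psme3ip1 (-0.56). Control day 3 replicate 1 and control day 1 replicate 5 were the lowest arrays for Psmg1, Psmd6, Psmd14 and Psma2. How far the correlations rest on these arrays was not tested. Psmg1 and these partners were picked after their values were seen. Several were among the most variable members, with SDs within groups of 0.42 for Psma2, 0.36 for Psmd13 and 0.34 for Psmd14, against a median of 0.20 over members.

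**Figure D4:**
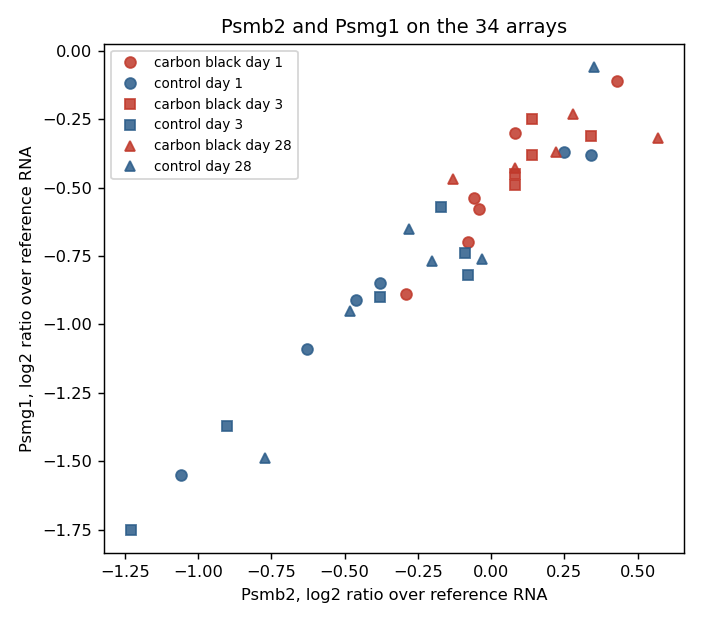
Log2 ratio of Psmb2 (x) and Psmg1 (y) on the 34 arrays, with carbon black in red and control in blue and the days by symbol. The points lie along a line from control day 3 replicate 1 (-1.23 and -1.75) to control day 28 replicate 2 (0.35 and -0.06), and the 4 lowest arrays are controls.

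The scaling of the arrays set the sign of the median over the members, which with loess was close to 0. The median over the members of an array had an SD of 0.11 between arrays of a group. On the 10 slide pairs the median difference of the members was above 0 in 5 and below 0 in 5. With loess, the median log2 fold change of the members was -0.08 at day 1, -0.04 at day 3, -0.04 at day 28 and -0.04 over all days, against 0.00, 0.01, 0.01 and 0.00 for all genes. With each array centred on its median in place of loess, the median of all genes shifted to 0.21, 0.29, 0.08 and 0.19, and that of the members to 0.39, 0.41, 0.16 and 0.34. Relative to all genes, the members were then higher by 0.18, 0.12, 0.08 and 0.15, and with loess lower by 0.07, 0.05, 0.04 and 0.04. Under median centring all 44 members were above 0 over all days and 36 were above the median of all genes, and 5 rose (Psmb2, Psmb6, Psmd6, Psmd14 and Psmg1) with none lower, beside 6.78% of all genes. With the authors' own deposited values, Psmb2 and Psmg1 rose and Psmb1, Psmd10 and Psme3ip1 fell, beside 7.53% of all genes. Psmb2 and Psmg1 were higher in carbon black under each of the 16 alternatives, at 0.19 to 0.69 and 0.18 to 0.74.

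**Figure D5:**
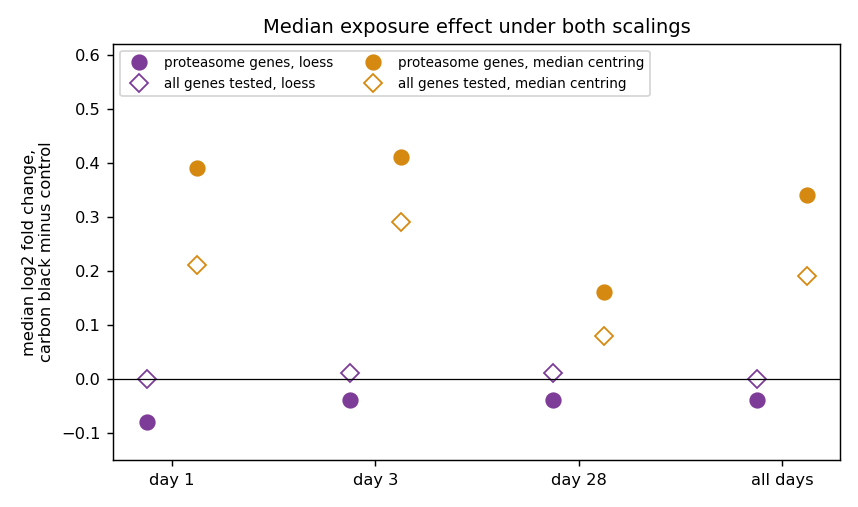
Median log2 fold change, carbon black minus control, over 44 proteasome genes (filled circles) and over all 19798 genes tested (open diamonds) at day 1, day 3, day 28 and over all days. With loess (purple) the members lie below the genes as a whole, and with median centring (orange) above them, with 0.34 against 0.19 over all days.

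The rest of the ubiquitin-proteasome pathway was described from lists chosen with earlier results of these data known. Of the 3 immunoproteasome genes none passed over all days, with Psmb8 at -0.26 ± 0.13 (SE) and Psmb10 at -0.06 ± 0.06. Among 4 ubiquitin genes, 1 fell: the polyubiquitin gene Ubb had 0.09 ± 0.21 on carbon black arrays (SD, n = 16) and 0.44 ± 0.25 on control arrays (SD, n = 18), a log2 fold change of -0.35 ± 0.08 (SE; limma, adjusted p = 0.0349), and 0.11 under median centring, where all genes had a median of 0.19. Among 12 shuttle and delivery factors, 1 rose: Nsfl1c, a cofactor of the unfoldase p97, by 0.55 ± 0.14 (adjusted p = 0.045). Among 6 genes for the transcription of proteasome genes, 1 rose: Mafk, a small MAF partner of NRF factors, by 0.36 ± 0.09 (adjusted p = 0.0418). Nfe2l2, which encodes NRF2, was at 0.29 ± 0.10 (adjusted p = 0.0952) and Nfe2l1, chosen for mention after its values were seen, at -0.07 ± 0.10. None of 8 other proteasome parts and assembly factors passed, with the lid subunit gene Sem1 at 0.58 ± 0.16 (adjusted p = 0.054) and Akirin2, which helps carry proteasomes into the nucleus, at -0.13. None of 20 ubiquitin-activating and conjugating enzymes and none of 9 muscle ubiquitin ligases passed. Nearest were Ube2s at -0.29 and Ube2g1 at 0.27 among the enzymes, and Trim54 at 0.43 and Klhl38 at 0.37 among the ligases. These counts stand beside 1.94% of all genes. In limma no gene passed with slide, scan day or array position as a fixed block (2850, 3210 and 1503 genes at an unadjusted p under 0.05), so the calls of Ubb, Nsfl1c and Mafk were lost there, and over the 16 alternatives Ubb and Mafk passed in 9 and Nsfl1c in 8. Their log2 fold changes ran from -0.41 to 0.11 for Ubb, from 0.06 to 0.89 for Nsfl1c and from 0.22 to 0.53 for Mafk. The median log2 fold change of these lists lay between -0.06 and 0.14, against 0.00 over all genes.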

How the data were processed

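Heart RNA of 34 mice was measured on two-colour Agilent arrays, 1 animal per array by the series' design. The authors deposited scanner files with median foreground and background intensity per spot, read by Feature Extraction 10.1.1.1, per the file headers, and a value table of log2 ratios whose making is not given in the sources used here. Against loess ratios without background correction those deposited log2 values had r of 0.995 to 0.998, slopes of 0.99 to 0.996 and column medians of -0.055 to -0.033, so scale, centring and direction follow from the values. The protocols give 200 ng of RNA per sample and no dye swap, so a dye bias cannot be told apart from a difference from the reference.

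Median signals were corrected with normexp (offset 50) and loess-normalised in limma 3.58.1 (R 4.3.3). Spots with outlier flags were left out, and spots of a probe were averaged. A probe was kept if a share of 0.5 or more of the arrays of any 1 group had its heart channel well above background and at most 3 values were missing, and the brightest probe stood for a gene. Of 41174 probes, 23374 were named through RefSeq. A mean per group was fitted for 19798 genes (28 residual degrees of freedom), with Benjamini-Hochberg adjustment and a threshold of 0.05. The effect over all days is the mean of the 3 day effects. Genes named are those past the threshold, the 4 of smallest unadjusted p in a comparison, and the highest and lowest of each role; the fit was tested on simulated data. The members, lists and motifs were chosen with earlier results of these data known. Slide, scan day, position, scaling, background, filter, probe choice, array weights and left-out arrays were varied. Slides, scan days and positions come from the file headers and names; the 14 slides were scanned on 7 days. The number of arrays limits the precision. Promoter windows were read from RefSeq tables, and figures drawn with matplotlib 3.10.9.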

Additional observations from a re-analysis of the deposited data

Results flagged for a closer look

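Of 66 groups of arrays examined for 11 items, 8 held an array far from the others of its group. A chance rate of about 1 in 20 would hold for independent groups. The items share arrays and some were named for their values, so the count cannot be set against that rate. Control day 1 replicate 5 was the lowest of its group for Psmb6 at -1.58 (nearest -0.39) and Psmd14 at -2.53 (nearest -1.41) and the highest for Psme3ip1 at 0.09 (nearest -0.13); the same array had the lowest share of spots well above background, 42.8%. Control day 1 replicate 2 had Psme4 at 2.41 (nearest 1.61), and this array was low in atrial transcripts. Control day 28 replicate 2, also low in atrial transcripts, had Psmd11 at 0.45 (nearest 0.09) and a median over the members of 0.07 (nearest -0.20). Carbon black day 3 replicate 2, low in atrial transcripts as well, had Psmb2 at 0.34 (nearest 0.14). Carbon black day 28 replicate 3 had Psme3ip1 at -0.47 (nearest -0.22). The part of section make-up in these values was not tested.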

How the results depend on the processing

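The count of proteasome genes past the threshold over all days was 3, beside 1.94% of all genes. It stayed 3 with slide as a random block (2.2% of all genes) and with Aquantile after loess (1.94%). With probes well above background on all arrays it was 3 as well (3.31%). It was 0 with slide, scan day or array position as a fixed block and with Agilent processed signals, beside 0% of all genes in each. With no filter on dim probes it was 0, beside 0.46% of all genes. It was also 0 with the mean of all probes of a gene (0.707%), and without the 3 control day 3 arrays highest in liver transcripts (0.00505%). Arrays of other groups high in liver transcripts stayed in that fit. The count was 0 as well without the 2 control arrays lowest in Psmb2 and Psmg1 (0.0404%), an alternative chosen after seeing the data. It was 5 in the authors' value table and with median centring, beside 7.53% and 6.78% of all genes. It was also 5 with no correction for background (7.51%) and without the 5 arrays low in atrial transcripts (5.15%). With array quality weights the count was 6, beside 6.98% of all genes. Leaving out 1 array gave 0 to 5. The cause was not tested. At single days, between days and in controls over time the count was 0 in all these alternatives. The median over members moved with median centring alone, to 0.39 at day 1, 0.41 at day 3, 0.16 at day 28 and 0.34 over all days. Median centring, which moved the median of all genes to 0.21, 0.29, 0.08 and 0.19, also turned the sign of Psmb7 (0.19) and Psmb1 (0.27) at day 1, Psme3ip1 (0.18) at day 3, Psmd11 (0.01) at day 28, and Psme3ip1 (0.14) and Psmd10 (0.09) over all days. Of these, Psmb1 alone was above the median of all genes, and the others were above 0 but below that median. By replicate number, no paired analysis was possible because the labels give each array its own number, which arrays of other groups do not share. Slides were used as blocks and as 10 pairs.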

Other observations

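Of 15 proteasome genes with several tested probes, 18 further probes could be set beside the one used, and 16 of these had the same sign of change over all days as the probe used; their correlation with it within groups ran from -0.18 to 0.97, with a median of 0.57. The 2 probes of Psme2 had r = 0.97 and those of Psmd7 r = 0.04. The probe of Psmf1 with the lowest ratio over the reference gave -0.23 ± 0.09 (SE) over all days, against -0.02 ± 0.06 for the probe used. Psma2 had the widest range of the alpha ring, from -0.92 to 0.03 on carbon black arrays and from -2.09 to -0.16 on control arrays.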
